A study of Mus musculus with 8 samples.

Results

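The ErbB receptors and their ligands were described in organoids grown from mammary tumors, with and without SOX4, of mice carrying MMTV-PyMT, MMTV-Cre and Ecadherin-mCFP. The 10 genes were chosen by name: the receptors Egfr, Erbb2, Erbb3 and Erbb4, and the ligands Nrg1, Areg, Ereg, Hbegf, Tgfa and Btc, out of 38293 gene identifiers in the bulk counts. Bulk RNA-seq covered 2 control lines (WT1, WT3) and 3 SOX4 knockout lines (SOX4KO; H7, M4, H4), and single-cell RNA-seq covered 1 control library (GR17) and 2 SOX4KO libraries (GR18, GR19). All 8 samples, controls included, carry the PyMT oncogene and the Cre transgene, both driven by the MMTV promoter, and the fluorescent Ecadherin allele. Every sample was collected 4 days after plating as single cells in medium with B27 and FGF2. No ErbB ligand is listed in that medium. The lines were made with CRISPR/Cas9, and the labels do not say which single-cell library came from which bulk line. Each line was taken as 1 replicate, and whether every line is a single clone is not given in the sources used here.

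ErbB receptors are tyrosine kinases at the cell surface. Ligand binding lets them pair with one another and signal through the RAS-ERK and PI3K-AKT routes. Erbb2 has no known ligand of its own and acts as the preferred partner. Erbb3 has very weak kinase activity and couples strongly to PI3K when paired with Erbb2. Tgfa and Areg bind Egfr, Btc, Hbegf and Ereg bind Egfr and Erbb4, and Nrg1 binds Erbb3 and Erbb4. The ligands are made as membrane proteins and released by ADAM proteases. In the mammary gland Egfr and Areg are known for their roles in duct growth, and Erbb4 for its role in milk production.

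What the ligands share is the EGF-like domain that contacts the receptor, and the coding sequence of that domain is shown for the 4 ligands on which the results below turn. The stretches run from the first to the last of the 6 cysteines and were read from GENCODE M21 transcripts (build GRCm38), with the cysteine codons in capitals. They cover coding bases 136 to 243 of Tgfa, 205 to 312 of Btc, 709 to 828 of Nrg1 and 415 to 522 of Areg.
Tgfa: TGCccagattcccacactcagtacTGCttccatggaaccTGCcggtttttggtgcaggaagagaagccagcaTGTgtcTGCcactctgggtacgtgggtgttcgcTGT
Btc: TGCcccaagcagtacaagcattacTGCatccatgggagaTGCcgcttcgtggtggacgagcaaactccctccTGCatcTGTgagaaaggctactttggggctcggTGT
Nrg1: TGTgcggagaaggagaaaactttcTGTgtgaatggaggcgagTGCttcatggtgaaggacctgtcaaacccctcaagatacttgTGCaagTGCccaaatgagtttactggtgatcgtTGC
Areg: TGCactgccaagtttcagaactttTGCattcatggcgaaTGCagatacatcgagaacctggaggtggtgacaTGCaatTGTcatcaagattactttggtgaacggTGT
The stretches of Tgfa, Btc and Areg each had 36 codons and that of Nrg1 had 40.

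Before the results, the libraries were compared. Bulk libraries held 3050323 to 4678497 reads on genes, so that genes of a few CPM (counts scaled to a common library total) rest on few reads. M4 had the fewest reads, the highest mitochondrial share (7.66%, against 3.97% to 5.45% in the other lines) and the highest share of reads in its 10 most counted genes (19.7%, against 11.3% to 13.5%). Sox4 itself had 295 and 374 CPM in the control lines and 199, 179 and 299 CPM in the SOX4KO lines, and the lines overlapped. An edit that disrupts a protein need not remove its RNA, so this level does not check the labels. The single-cell libraries held 362 to 369 cells of at least 1000 UMIs (unique molecular identifiers, each counting 1 captured transcript) and 7714119 to 8296953 UMIs. They had no wells with identical counts, although 355 to 362 well numbers were shared by each pair of libraries. Of 14 luminal markers only Pgr was at 0 in every bulk line, and the epithelial markers Krt8 and Epcam averaged 464 and 781 CPM in the bulk control lines. Fibroblast, endothelial, immune and adipocyte markers summed to at most 5.49 CPM in the single-cell libraries. In bulk the 5 fibroblast markers summed to 93.1 and 108 CPM in the control lines and to 73.6, 43.6 and 74.0 CPM in the SOX4KO lines, and the other 3 lists stayed at or below 13.9 CPM.

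Of the ligands 2 were higher and 1 was lower in the SOX4KO bulk lines, and no receptor passed the test. Tgfa and Nrg1 rose and Btc fell. Across all genes, 6.27% of the 11682 tested were called (4.1% higher and 2.17% lower in SOX4KO), at an adjusted p under 0.1 in the edgeR quasi-likelihood test. Of the 10 members 7 had enough reads to be tested. Their median log2 fold change was 0.50, beside 0.01 over all genes tested. The lines of the 2 groups did not overlap for 6 of these 7 genes, 4 higher and 2 lower in SOX4KO, beside 36.9% of all genes tested. The p-values compare only 2 with 3 lines, and the spread they use is in part shared across all genes fitted. They also depended on the filter. Without a filter on low counts edgeR gave an adjusted p of 1.84e-06 for Nrg1 (0.0626 with it) and 9.81e-06 for Tgfa (0.0298).

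**Figure D1:**
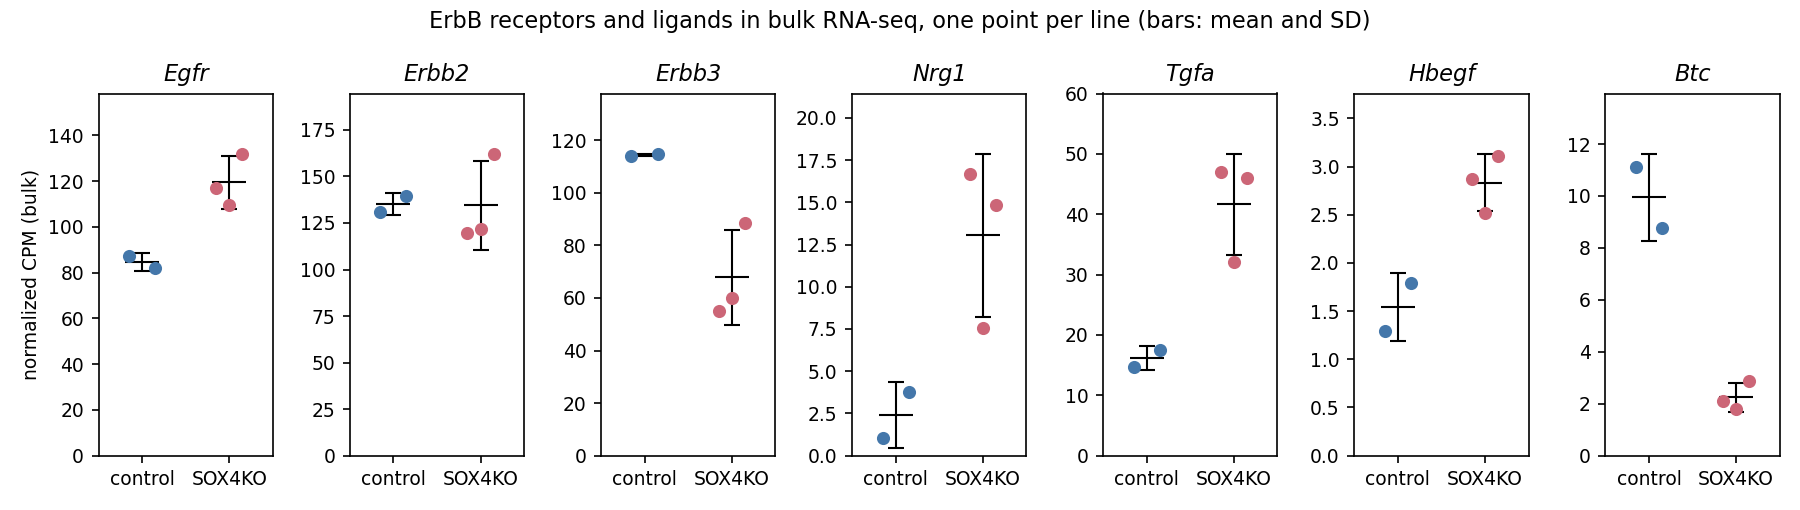
Normalized CPM of the 7 tested members in each bulk line (points), with mean and SD (bars), for 2 control and 3 SOX4KO lines; each panel has its own linear axis from 0. Erbb2 was the only gene of the 7 in which the groups overlapped.

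Tgfa (ENSMUSG00000029999), which binds Egfr, had the most reads of the 6 ligands. It had 14.8 CPM in WT1 and 17.5 CPM in WT3. It had 47.0 CPM in H7, 32.0 CPM in M4 and 46.0 CPM in H4. Every SOX4KO line was above both controls, and M4 was the lowest of the 3. The group means were 16.1 ± 1.96 CPM (SD, n = 2) and 41.7 ± 8.35 CPM (SD, n = 3), a 2.58-fold rise (log2 fold change 1.37, SE 0.24, edgeR adjusted p = 0.0298). The rise was 1.51 on the log2 scale without M4. With only 1 control line it was not called (1.25 without WT1, adjusted p = 0.208, and adjusted p = 0.224 without WT3), and such a fit assumes that the lone line varies like the SOX4KO lines.

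Nrg1 (ENSMUSG00000062991), the ligand of Erbb3 and Erbb4, had 1.04 CPM in WT1 (4 reads) and 3.78 CPM in WT3 (19 reads). It had 16.7 CPM in H7 (64 reads), 7.56 CPM in M4 (21 reads) and 14.8 CPM in H4 (62 reads). The groups did not overlap, and the lowest SOX4KO line was again M4. The means were 2.41 ± 1.94 CPM (SD, n = 2) and 13.04 ± 4.83 CPM (SD, n = 3), which was 5.20-fold higher in SOX4KO (log2 fold change 2.38, SE 0.56, edgeR adjusted p = 0.0626). This call was lost without WT1 (1.79, adjusted p = 0.292), without WT3 (3.62, adjusted p = 0.159) and without H7 (2.17, adjusted p = 0.117). Nrg1 exons share 482 bases with Gm26578 on the opposite strand, and Gm26578 itself had 0, 0, 3, 3 and 0 reads in WT1, WT3, H7, M4 and H4. Whether strand was used in counting is not given in the sources used here, so reads of these genes could not be separated with certainty. The same limit holds for Tgfa, whose exons share 118 bases with Gm43917 on the opposite strand. Gm43917 was not among the counted genes, so its reads could not be checked.

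Btc (ENSMUSG00000082361), a ligand of Egfr and Erbb4, moved the other way. It had 11.1 CPM in WT1 and 8.76 CPM in WT3, against 2.09 CPM in H7, 1.80 CPM in M4 and 2.87 CPM in H4. All 3 SOX4KO lines were below both controls, but they rested on 8, 5 and 12 reads, beside 43 and 44 in the controls. The means were 9.95 ± 1.68 CPM (SD, n = 2) and 2.25 ± 0.556 CPM (SD, n = 3), and Btc was 4.28-fold lower in SOX4KO (log2 fold change -2.10, SE 0.38, edgeR adjusted p = 0.0320). The call was lost without WT1 (-1.93, adjusted p = 0.249) and without WT3 (-2.27, adjusted p = 0.254).

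The remaining ligands were near or under the detection limit in bulk. Hbegf, a ligand that also binds heparin, had 1.29 and 1.79 CPM in the control lines and 2.87, 2.52 and 3.11 CPM in the SOX4KO lines. These values came from 5 to 13 reads a line, and although the groups did not overlap, the difference was not called (log2 fold change 0.86, SE 0.50, edgeR adjusted p = 0.425). Areg had 1 read in WT3, 1 in H7 and none in the other lines. Ereg had no read in any line, where 3 reads would have been 0.597 to 1.08 CPM.

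Some markers of cell state also differed between the groups. Sums of marker lists were scaled to library totals only, unlike the normalized CPM of single genes. The 12 basal markers summed to 2181 and 1329 CPM in the control lines and to 4863, 6585 and 2487 CPM in the SOX4KO lines. The groups did not overlap, and only Myh11 was at 0 in all lines. The 14 luminal markers overlapped (3237 and 3274 CPM against 2444, 2125 and 4487 CPM). The 10 S phase markers were lower in SOX4KO (490 and 566 CPM against 254, 308 and 219 CPM), as were the 11 markers of G2 or M (672 and 617 CPM against 285, 375 and 275 CPM). H4, whose basal sum was closest to the controls, had Tgfa and Nrg1 levels near those of H7. M4, whose basal sum was the highest, had the lowest Tgfa and Nrg1 levels of the SOX4KO lines. The part of these shifts in the ligand differences was not tested. In bulk samples, fewer cells that make a transcript and less of that transcript per cell cannot be told apart.

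Among the receptors Egfr was higher and Erbb3 lower in every SOX4KO line, without a call for either. Egfr had 87.5 and 82.1 CPM in the control lines and 117, 109 and 132 CPM in the SOX4KO lines. The means were 84.8 ± 3.85 CPM (SD, n = 2) and 120 ± 11.5 CPM (SD, n = 3), with a log2 fold change of 0.50 (SE 0.17, edgeR adjusted p = 0.171). It was called only without M4 (0.55, adjusted p = 0.0966).

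Erbb3, the receptor that binds Nrg1, had 114 and 115 CPM in the control lines and 55.1, 60.1 and 88.4 CPM in the SOX4KO lines. The controls were nearly equal and H4 was the highest of the SOX4KO lines. The log2 fold change was -0.75 (SE 0.22, edgeR adjusted p = 0.121), and the call depended on the method. DESeq2 called Erbb3 lower (-0.75, adjusted p = 0.0614), as did edgeR without a filter on low counts (-0.76, adjusted p = 0.00906) and edgeR without H4 (-0.99, adjusted p = 0.0356).

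Erbb2 had 131 and 139 CPM in the control lines and 120, 122 and 162 CPM in the SOX4KO lines, and the groups overlapped. Its log2 fold change was -0.01 (SE 0.19, edgeR adjusted p = 0.990), and it ranged from -0.16 to 0.069 as single lines were left out. Erbb4 had no read in any bulk line.

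To compare levels between genes, CPM were divided by the exon length in kilobases. On this scale the order in the control lines was Erbb2 (25.9 CPM per kb), Erbb3 (19.0), Egfr (7.49), Tgfa (2.49), Btc (2.20), Hbegf (0.319) and Nrg1 (0.233). The lines overlapped between Tgfa and Btc and between Hbegf and Nrg1. In the SOX4KO lines Erbb2 had 25.8, Erbb3 11.3, Egfr 10.6, Tgfa 6.42, Nrg1 1.26, Hbegf 0.586 and Btc 0.499 CPM per kb, with overlap between Erbb3 and Egfr and between Hbegf and Btc. Btc was close to Tgfa in the controls and close to Hbegf in SOX4KO. Percentiles of the control means on this scale were taken over 17646 genes with a read in any bulk line, including genes read only in SOX4KO. Erbb2 stood at percentile 90.0, Erbb3 at 85.6, Egfr at 66.6, Tgfa at 45.7, Btc at 44.0, Hbegf at 25.0 and Nrg1 at 22.3.

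The summed receptors overlapped between the groups, and their proportions did not. Receptors summed to 51.8 and 53.1 CPM per kb in control lines and to 42.4, 43.0 and 57.5 CPM per kb in SOX4KO lines (exact permutation test, two-sided p = 0.6). The ratio of Erbb3 to Erbb2 was 0.755 and 0.713 in the controls and 0.399, 0.428 and 0.472 in SOX4KO. The ratio of Egfr to Erbb3 was 0.407 and 0.380 in the controls and 1.13, 0.967 and 0.793 in SOX4KO. Neither ratio overlapped between the groups. The exact permutation test gave a two-sided p = 0.2 for each, and 2 against 3 lines are too few for a small p in such a test.

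The 6 ligands summed to 5.10 and 5.54 CPM per kb in the control lines and to 10.1, 6.59 and 9.80 CPM per kb in the SOX4KO lines. Tgfa made up 44.5% and 48.7% of this sum in the controls and 71.5%, 75.0% and 72.3% in SOX4KO. Btc made up 48.2% and 35.0% in the controls and 4.56%, 6.05% and 6.49% in SOX4KO. The share of Nrg1 was 1.96% and 6.60% in the controls and 15.9%, 11.1% and 14.6% in SOX4KO. The groups did not overlap in the ligand sum or in any of these 3 shares. The exact permutation test was run on the sum and on the shares of Tgfa and Btc, and gave a two-sided p = 0.2 for each, again with too few lines for a small p.

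**Figure D2:**
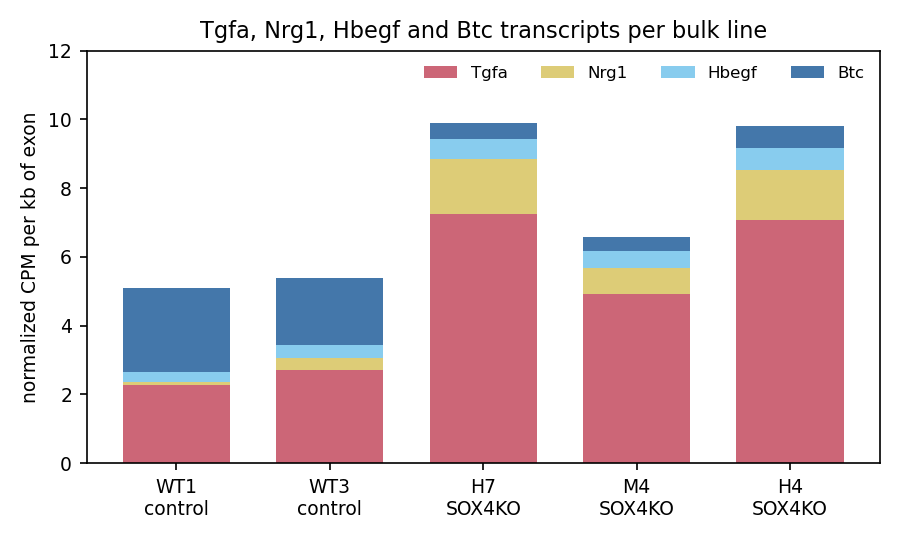
Ligand transcripts in each bulk line as stacked normalized CPM per kb of exon, for Tgfa, Nrg1, Hbegf and Btc (Areg, with 1 read in WT3 and 1 in H7, is not drawn). Btc made up 35.0% to 48.2% of the summed transcripts of the 6 ligands in the 2 control lines and 4.56% to 6.49% in the 3 SOX4KO lines.

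Tgfa and Btc, called in opposite directions, have their starts in the RefSeq annotation of GRCm38.p6. The bases just after the Btc start were found near the front of a GENCODE coding transcript of Btc. Those after the Tgfa start were not found in this way for Tgfa, so its start is less certain. The 250 bases before each start are printed 5′ to 3′ on the strand of the gene. Tgfa lies on the plus strand at chr6:86194972-86195221 and Btc on the minus strand at chr5:91402995-91403244.
Tgfa promoter: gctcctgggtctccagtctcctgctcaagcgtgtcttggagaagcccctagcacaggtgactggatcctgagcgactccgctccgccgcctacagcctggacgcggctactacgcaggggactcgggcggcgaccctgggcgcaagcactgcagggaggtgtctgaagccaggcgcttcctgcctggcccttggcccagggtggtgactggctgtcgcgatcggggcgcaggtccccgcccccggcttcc
Btc promoter: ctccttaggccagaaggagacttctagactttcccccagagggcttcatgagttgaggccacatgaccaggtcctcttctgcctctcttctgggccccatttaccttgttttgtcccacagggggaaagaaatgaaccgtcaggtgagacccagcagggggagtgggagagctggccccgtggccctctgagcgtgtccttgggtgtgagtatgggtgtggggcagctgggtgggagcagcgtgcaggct
The Tgfa stretch had a GC content of 69.2% and the Btc stretch 59.6%. Such stretches were found for 6 of the 10 members (Egfr, Erbb2, Erbb4, Areg, Tgfa and Btc). The letters ACAAAG and ACAATG, which are core motifs bound by SOX factors, and TGANTCA, the AP-1 motif, had no match on either strand in any of the 6. Over 32851 promoters of this length they matched in 16.5%, 10.7% and 6.75%. The search says nothing about sites outside these windows.

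Genes around the pathway were read from lists of ligands, proteases, inhibitors, signaling proteins and response genes. Of the other ErbB ligands (Egf, Epgn, Nrg2, Nrg3, Nrg4) only Nrg2, a neuregulin that binds Erbb3 and Erbb4, had enough reads to be tested. It had 20.2 and 21.5 CPM in the control lines and 37.1, 18.0 and 29.2 CPM in the SOX4KO lines, and the groups overlapped (log2 fold change 0.44, SE 0.30, edgeR adjusted p = 0.499). Per kb of exon the mean level of Nrg2 was 6.64 CPM in control and 8.95 CPM in SOX4KO lines, above that of each of the 6 ligands in both groups, although the SOX4KO lines overlapped between Nrg2 and Tgfa. Nrg2 is not part of the ligand sums and shares given above. Of 10 genes for ligand processing, 8 were tested and 1 was called. This was Timp3, an inhibitor of ADAM proteases, which rose from 299 ± 74.0 CPM (SD, n = 2) to 709 ± 87.2 CPM (SD, n = 3), a log2 fold change of 1.25 (SE 0.23, edgeR adjusted p = 0.0320).

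Genes that restrain ErbB receptors showed no call in 14 tested (median log2 fold change 0.03). The lowest p-values were those of Socs5, a suppressor of cytokine and Egfr signaling (0.65, edgeR adjusted p = 0.108), and Lrig1, which promotes ErbB receptor degradation (-0.67, adjusted p = 0.141). At an unadjusted p under 0.05 there were 3 of the 14 (21.4%), beside 18.1% of all genes tested, and DESeq2 called both of these genes, Socs5 higher and Lrig1 lower. None of the 29 adaptors and kinases of the RAS-ERK and PI3K-AKT routes was called by edgeR or DESeq2 (median 0.12). At that unadjusted p there were 3 of the 29 (10.3%), and the lowest p-values were those of the GTPase Nras (-0.52, edgeR adjusted p = 0.177) and the kinase Src (0.51, adjusted p = 0.182).

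Of 16 ERK-responsive genes 15 were tested, 3 were called higher and none lower, beside 4.1% and 2.17% of all genes. Spry4, a feedback inhibitor of receptor tyrosine kinase signaling, went from 8.67 to 24.1 CPM (log2 fold change 1.48, SE 0.25, edgeR adjusted p = 0.0275). Ccnd1, which encodes cyclin D1, went from 502 to 1094 CPM (1.12, SE 0.22, adjusted p = 0.0376). Etv4, an ETS transcription factor, went from 21.7 to 37.0 CPM (0.76, SE 0.20, adjusted p = 0.0892). The median of the list was 0.33. With 1 control line left out, no gene of these lists was called higher, Timp3 included. DESeq2 also called Fos (-0.99) and Phlda1 (-0.66) lower, as did edgeR without a filter on low counts (-0.99 and -0.67). The control lines differed for Fos, with 235 CPM in WT1 and 101 CPM in WT3, beside 82.2, 89.3 and 83.1 CPM in H7, M4 and H4. In the single-cell libraries Fos was not lower in SOX4KO, with 500 CPM in GR17, 815 CPM in GR18 and 575 CPM in GR19. In the main fit 10 of the 15 genes were higher and 5 lower, called or not, so the list did not move in 1 direction. FGF2 was in the medium of every sample and also signals through ERK, and these genes do not tell the receptors apart.

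In the single-cell libraries the same genes were measured per cell. With 1 control library no test was run, and each library was a plate of its own, so line and plate cannot be told apart. Values are CPM of UMIs summed over the cells of a library, with 95% Poisson intervals that cover counting error only. A gene was counted as changed when it differed at least 2-fold, in the same direction, in both SOX4KO libraries. None of the 4 members above 20 CPM (Egfr, Nrg1, Hbegf and Tgfa) met this rule, beside 2.24% of 6303 genes.

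Egfr had 37.7 CPM in GR17 (33.5 to 42.3), 42.2 CPM in GR18 and 41.2 CPM in GR19. The ratios to control were 1.12 (0.954 to 1.31) and 1.09 (0.932 to 1.28), both intervals including no change. Erbb2 had 18.4, 14.98 and 15.1 CPM, with ratios of 0.814 (0.633 to 1.05) and 0.818 (0.638 to 1.05). Erbb3 was found with 3, 5 and 13 UMIs in the 3 libraries, and Erbb4 with none, where 3 UMIs would have been 0.362 to 0.389 CPM.

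Tgfa had 24.5, 24.1 and 32.5 CPM in GR17, GR18 and GR19, so that only GR19 was above the control (ratio 1.33, 1.10 to 1.61). Nrg1 had 18.3, 24.7 and 21.0 CPM, and only the ratio of GR18 had an interval above 1 (1.35, 1.08 to 1.69). Hbegf had 34.6, 30.6 and 42.7 CPM, with ratios of 0.884 (0.740 to 1.06) and 1.23 (1.05 to 1.45) on opposite sides of 1. The SOX4KO libraries thus differed from each other for Hbegf and Tgfa by as much as either did from the control.

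Areg, which was almost absent from the bulk lines, was lower in both SOX4KO libraries than in the control library. It had 72 UMIs in GR17 (9.33 CPM), 30 in GR18 (3.75 CPM) and 14 in GR19 (1.69 CPM). That was 2.49-fold (1.61 to 3.95) and 5.53-fold (3.09 to 10.6) lower than in the control. Its mean was under the 20 CPM set for the count above. The 10 cells with the most Areg held 51.4% of the Areg UMIs of GR17, with up to 12 UMIs in a cell, so that the interval understates the uncertainty. In GR18 and GR19 only 14 and 10 cells held any Areg UMI, beside 42 in GR17. Their corresponding shares of 86.7% and 100% were therefore bound to be high and cannot be compared with that of GR17. Epgn and Nrg2, of the other ErbB ligands, were also lower in both SOX4KO libraries: Epgn by 1.62-fold (0.956 to 2.79) and 2.996-fold (1.59 to 5.97), and Nrg2 by 1.77-fold (1.33 to 2.37) and 1.52-fold (1.16 to 2.003). Ereg was found only in GR18, with 6 UMIs in 2 cells.

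**Figure D3:**
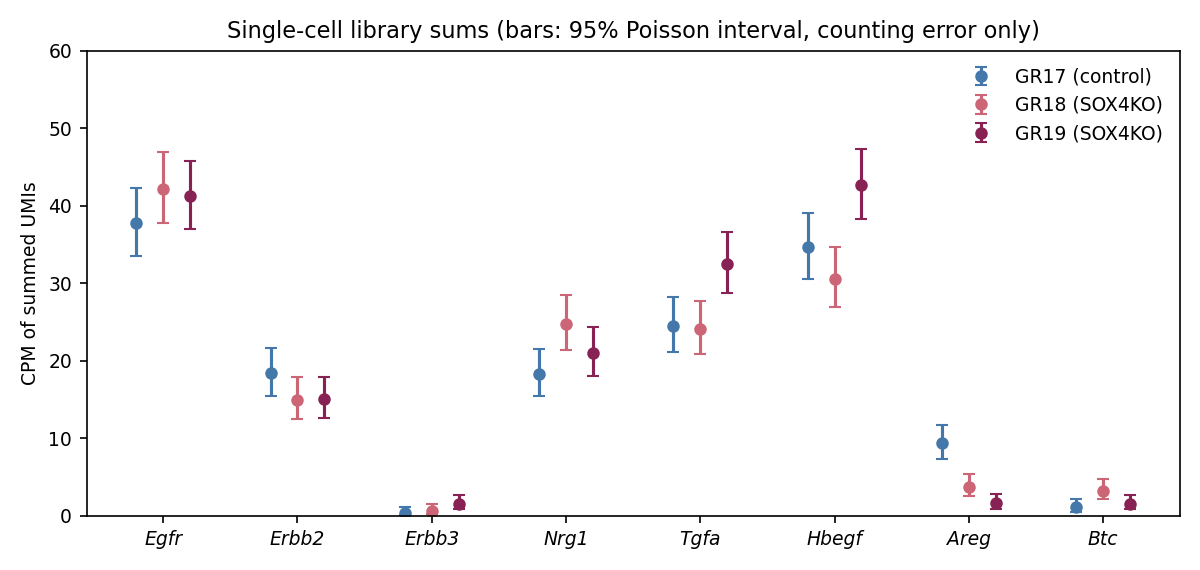
CPM of UMIs summed over all cells in the control library GR17 and the SOX4KO libraries GR18 and GR19, with 95% Poisson intervals (counting error only). Areg had 9.33 CPM in GR17, above its level in GR18 and in GR19 (3.75 and 1.69 CPM), and for the other genes drawn the 2 SOX4KO libraries did not both reach a 2-fold difference once 1 CPM was added.

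Many cells carried at least 1 UMI of a receptor or ligand. Egfr was found in 49.1%, 51.5% and 55.0% of the cells of GR17, GR18 and GR19, Tgfa in 37.1%, 34.7% and 46.4%, Hbegf in 34.4%, 34.1% and 37.3%, Erbb2 in 29.0%, 27.9% and 28.7%, and Nrg1 in 28.5%, 30.1% and 30.9%. These shares depend on depth. With each cell thinned to 10000 UMIs (334, 330 and 342 cells left) they were 27.5%, 31.8% and 32.5% for Egfr and 22.2%, 22.4% and 26.0% for Tgfa. Areg was found in 11.4% (8.33% to 15.1%) of GR17 cells, 3.79% of GR18 cells and 2.76% of GR19 cells. After thinning these were 6.59%, 2.42% and 1.75%, an order that matches its CPM. No cell type that should lack these genes was found in the libraries, so a background share from free RNA could not be measured.

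Both an Egfr UMI and a UMI of an Egfr ligand were found in 11.4%, 15.2% and 14.9% of the thinned cells of GR17, GR18 and GR19. Among thinned cells with an Egfr UMI, 41.3%, 47.6% and 45.9% also held a UMI of an Egfr ligand, and among cells without an Egfr UMI the shares were 44.6%, 36% and 40.3%. The libraries thus differed in which of these shares was larger. No UMI of any member was found in 30.8%, 33.0% and 29.5% of thinned cells.

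The 1100 cells fell into 7 clusters, named A to G by size. The clusters were made from the same cells, with Nrg1, Areg and Hbegf among the 2000 variable genes, so levels by cluster are a description. Clusters A (232 cells, 227 of them from GR17) and F (118 cells, 103 from GR17) held most control cells. Clusters B, C and G were made up mostly or wholly of SOX4KO cells with higher basal than luminal marker sums, C with the highest S phase sum (3023 CPM) and G with the highest G2 or M sum (3847 CPM). Clusters D and E had high luminal sums (4984 and 6438 CPM) and low basal sums (1085 and 993 CPM).

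Nrg1 and Hbegf were highest in different clusters. Nrg1 reached 47.6 CPM (41.0 to 55.0) in cluster C and was lowest in D (8.59 CPM) and E (8.71 CPM). This held in both SOX4KO libraries: Nrg1 had 52.4 CPM in cluster C, 8.04 CPM in D and 11.5 CPM in E in GR18, and 42.2, 9.32 and 7.72 CPM in GR19. Hbegf reached 70.1 CPM (60.5 to 80.7) in cluster E, with 46.4 CPM in D, and was lowest in G (17.1 CPM). In GR18 Hbegf had 63.4 CPM in E and 15.5 CPM in G, and in GR19 it had 78.7 and 18.7 CPM, with 15.4 CPM in B.

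Egfr varied little by comparison, from 32.4 CPM in D to 52.1 CPM in B. Tgfa ranged from 18.9 CPM in E to 38.3 CPM in C, and Erbb2 from 10.03 CPM in C to 25.7 CPM in F. Areg had 8.97 CPM in A and 10.6 CPM in D, and no UMI among the 220 cells of B. Of the 43 Areg UMIs in D, 17 came from 44 GR18 cells and 8 from 77 GR19 cells. The rest came from only 16 GR17 cells. Levels by library were read only for clusters with at least 40 cells of that library. Among these, the highest Areg level of GR18 was also in D (12.4 CPM), and GR17 had 8.95 CPM in A and 2.97 CPM in F. With a resolution of 0.3 the cells formed 4 clusters. Nrg1 was then highest at 37.3 CPM in a cluster of SOX4KO cells with a higher basal than luminal sum. In the cluster with the highest basal sum Nrg1 had 19.95 CPM. Hbegf was highest at 56.4 CPM in the cluster with the highest luminal sum.

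**Figure D4:**
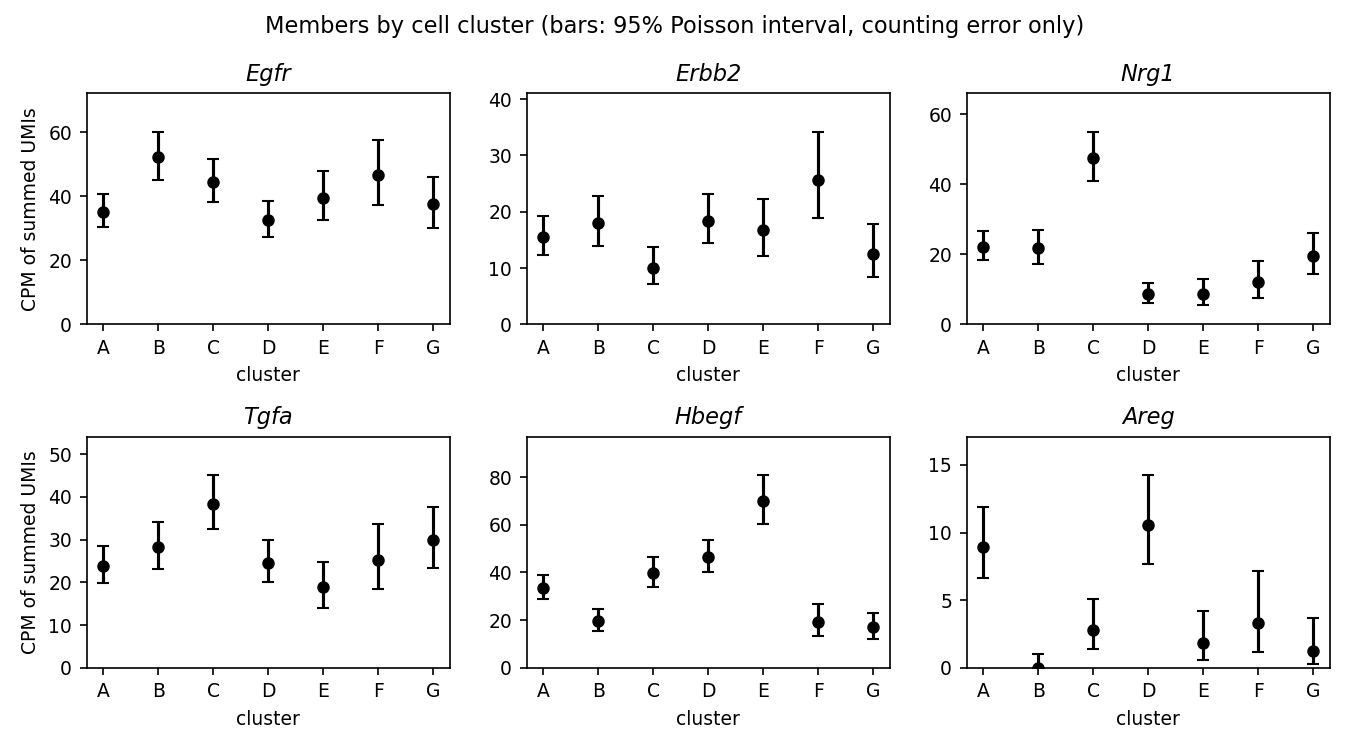
CPM of summed UMIs of 6 members in the 7 cell clusters A to G, with 95% Poisson intervals (counting error only); each panel has its own linear axis from 0. Nrg1 was highest in C (47.6 CPM) and Hbegf in E (70.1 CPM).

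Egfr, Hbegf and Tgfa had at least 0.5 UMI per cell in every library, and the genes closest to them across cells were found by the mean Pearson correlation within the 3 libraries, over 5711 genes. Cells of a library share its plate and differ in depth, and these values are descriptions. Hbegf was closest to Lif, a cytokine of the IL6 family (mean r 0.27), Errfi1, an inhibitor of Egfr kinase activity (0.25), and Tnfrsf12a, a receptor of the TNF family (0.22), where the median gene had 0.01. Egfr was closest to Fat2 (0.17), Rgs12 (0.15) and Sema3c (0.14), and Tgfa to Itgb4 (0.17), Fhl2 (0.16) and Rab2a (0.16), all weak. Among Egfr, Hbegf and Tgfa themselves, correlations in a library were between -0.05 and 0.13.

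The assays were also set side by side, since they ranked the members differently. In the bulk control lines Erbb3 had 114 CPM, and in GR17 it had 0.389 CPM. The log2 ratio of GR17 to bulk was taken without division by exon length, so differences in length between genes can enter it. This ratio put Erbb3 at percentile 0.156 of 11567 genes, and the median gene had -0.59. At the other end were Areg (0.0996 CPM in bulk and 9.33 CPM in GR17, percentile 99.8), Hbegf (1.54 and 34.6 CPM, percentile 99.2) and Nrg1 (2.41 and 18.3 CPM, percentile 97.4). Egfr was at percentile 35.0, Tgfa at 77.9, Erbb2 at 9.75 and Btc at 8.34. The early response genes Fos (percentile 90.5) and Egr1 (percentile 86.1) were also relatively higher in GR17, and the part of cell dissociation in the levels of Areg and Hbegf was not tested.

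**Figure D5:**
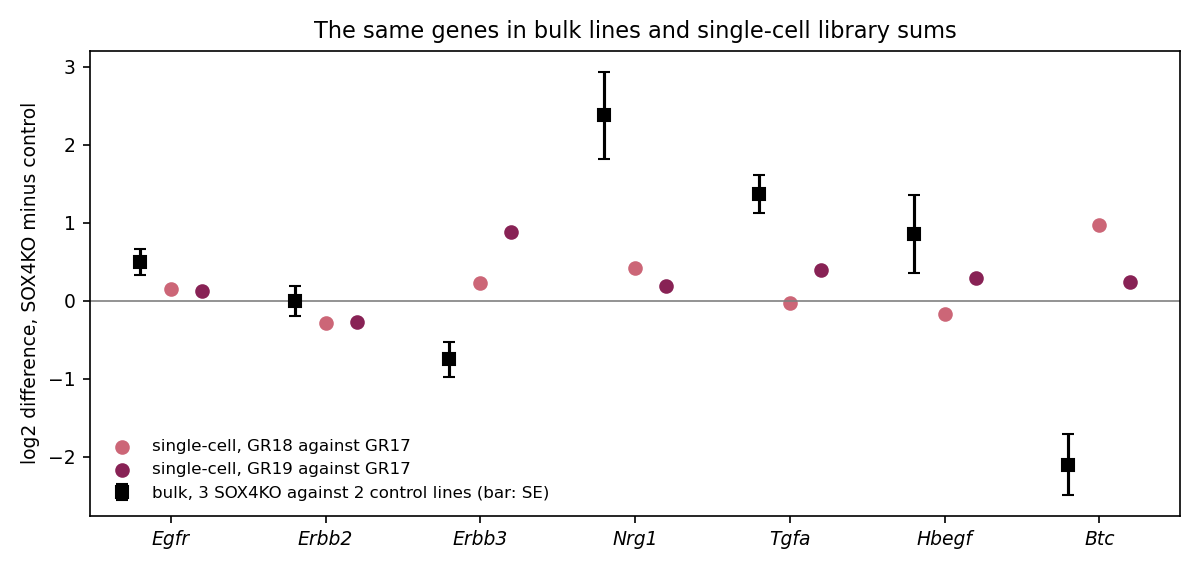
Log2 difference between SOX4KO and control for 7 members: bulk lines (squares with SE, edgeR fit over 2 control and 3 SOX4KO lines) and the single-cell libraries GR18 and GR19 against GR17 (circles, 1 CPM added, no error drawn). Nrg1 and Egfr were above 0 in all 3 comparisons, whereas Erbb3 and Btc were below 0 in bulk and above 0 in both single-cell libraries.

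For Nrg1 the bulk log2 fold change of 2.38 stood beside single-cell differences of 0.42 and 0.19 (GR18 and GR19). For Tgfa the values were 1.37 in bulk and -0.02 and 0.40 in single cells, and for Egfr 0.50 in bulk and 0.16 and 0.12 in single cells. Btc, lower in bulk, had 9, 26 and 13 UMIs in GR17, GR18 and GR19, with ratios of 2.78 (1.26 to 6.75) and 1.34 (0.531 to 3.56). The basal marker sum, higher in all SOX4KO bulk lines, was 4971 CPM in GR17, 5151 CPM in GR18 and 2895 CPM in GR19.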

How the data were processed

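The authors sequenced polyA RNA of 5 bulk and 3 single-cell samples. The deposited bulk values are raw read counts per Ensembl gene, 1 file per line. The deposited single-cell values are whole-number counts for each gene in each plate well, read here as UMIs. The submitters' processing notes name STAR 2.4.2a, HTSeq, edgeR, DESeq, Seurat and R 3.6.1 and the builds NCBIM37 and mm9. The bulk kit keeps strand, and the counting setting is not given in the sources used here. Rows naming no gene took 71.6% to 83.9% of each bulk file's counts and were left out. Most were reads without a unique alignment (45.7% to 53.0% of the counts) and reads assigned to no annotated gene (25.3% to 30.4%).

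Bulk counts were fitted with edgeR 4.0.16 (filterByExpr, TMM, quasi-likelihood test, two-sided, Benjamini-Hochberg over 11682 genes, called at adjusted p under 0.1). Normalized CPM of single genes use TMM, with factors from 0.913 (M4) to 1.08 (WT3). The bulk sums of marker lists are CPM without these factors. The SE is the log2 fold change divided by the square root of F. Exon lengths came from GENCODE M21 (GRCm38), not the files' build, and no coordinates of counted genes are given. DESeq2 1.42.0, other filters and scalings, and leaving out each line were alternatives.

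Wells under 1000 UMIs (15, 15 and 22 in GR17, GR18 and GR19) and ERCC spike-in rows were left out, and no doublet caller was run. Poisson and Clopper-Pearson 95% intervals cover counting error only. Single-cell differences used 1 CPM added, over genes of at least 20 CPM. Clusters were made with Seurat 5.3.0 (2000 variable genes, 10 components, 20 neighbours, resolution 0.5). Scripts were tested on simulated data.

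The members, gene lists and tests were chosen with earlier results of these data known. All members were named, as was every called gene of the lists, the 2 genes of lowest p where a list had no call, and the 3 genes closest to each member of at least 0.5 UMI per cell. Fos and Phlda1 were named after their values were seen. Promoters are from RefSeq (GRCm38.p6), and coding stretches are from the longest reading frame of GENCODE transcripts.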

Additional observations from a re-analysis of the deposited data

Results flagged for a closer look

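Erbb3 was lower in every SOX4KO bulk line than in both control lines (log2 fold change -0.75), while both SOX4KO single-cell libraries were above the control library (mean log2 difference 0.56). Btc was likewise lower in bulk (-2.10) and higher in both single-cell libraries (0.61). Both were picked out because the bulk and single-cell groups lay on opposite sides of their controls, and the difference between the assays was not tested. In single cells Erbb3 rested on 3 to 13 UMIs and Btc on 9 to 26 UMIs a library. The Erbb3 ratio to control was 1.61 (0.312 to 10.3) in GR18, an interval that includes no change, and 4.03 (1.11 to 22.0) in GR19. With 10 CPM added in place of 1, the mean log2 differences were 0.09 for Erbb3 and 0.15 for Btc.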

How the results depend on the processing

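With DESeq2, 2 members were called lower in place of 1, and 3 genes of the pathway lists in place of 0. Without a filter on low counts these numbers were again 2 and 3, and over all genes 1008 were higher and 678 lower, in place of 479 and 254. At an adjusted p under 0.05, 1 member was called higher. With single lines left out, 0 to 3 members were called higher and 0 to 2 lower, 0 to 7 pathway genes higher and 0 to 2 lower, and over all genes 30 to 624 higher and 26 to 382 lower. The lowest numbers over all genes were those without WT3 (30 and 26) and WT1 (93 and 37), where the spread of the lone control is borrowed from SOX4KO. Erbb2 ranged from -0.16 to 0.069 and was above 0 without WT3 (0.039), H7 (0.069) and M4 (0.055). Over all alternatives for the tests of single members, 46 values kept direction and call, 7 lost a call, 4 gained one and 3 turned in sign. Hbegf could not be fitted without H7 or H4, as it fell below the filter. No paired analysis was possible because the labels give the lines no shared numbers and no common origin by pair. Depth limits Hbegf, Btc and Nrg1 in bulk and Erbb3, Btc and Areg in single cells.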
